A study of Mus musculus with 6 samples.

Results

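Histone lysine acetyltransferases are examined here as a group of 9 genes of the 26898 in the expression table, namely Kat2a, Kat2b, Kat5, Kat6a, Kat6b, Kat7, Kat8, Ep300 and Crebbp. They were chosen by gene symbol, as Kat8, the catalytic partner of KANSL1, and the other main nuclear acetyltransferases. Each symbol matched 1 gene, and all 9 were tested. The samples sequenced were primary embryonic fibroblasts of the mouse (MEFs), connective tissue cells grown from midgestation embryos of strain C57BL/6, at passage 3. The WT group (Kansl1fl/fl; WT 4, WT 5 and WT 8) carried loxP-flanked Kansl1 alleles, and the KO group (Kansl1fl/fl/CAG-cre; KO 3, KO 7 and KO 10) carried these alleles with a Cre recombinase that tamoxifen activates, driven by the CAG promoter, which is active in most cell types. All 6 cultures had received 1 μM tamoxifen for 48 h, and the study describes 3 mice per group. Every KO sample carried Cre and no WT sample did, so loss of Kansl1 and presence of Cre cannot be told apart.

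Lysine acetyltransferases transfer an acetyl group from acetyl-CoA to lysines of histone tails and other nuclear proteins, a mark found at active promoters and enhancers. They fall into families. KAT2A (GCN5) and KAT2B (PCAF) are alternative catalytic subunits of the SAGA and ATAC complexes and acetylate mainly histone H3. KAT5 (TIP60), KAT6A (MOZ), KAT6B (MORF), KAT7 (HBO1) and KAT8 (MOF) share the MYST catalytic domain. The coactivators EP300 (p300) and CREBBP (CBP) bind many transcription factors and acetylate histone H3 at enhancers. KAT8 acetylates histone H4 and works in 2 assemblies, the MSL complex and the NSL complex, of which KANSL1 is the scaffold.

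Expression was deposited as TPM, in which reads are divided by gene length and every sample is brought to an equal sum. The values matched the length of all merged exons of a gene, not of the transcripts expressed. Comparisons of level between different genes, and shares of a sum, therefore depend on that length. Recovered reads on genes ranged from 17654338 to 27716119 per sample. The members were covered by 113 to 3639 reads per sample. The RNA with the highest TPM, Gm23935, took 15.5% to 25.6% of TPM. It was highest in KO 3 (25.6%) and WT 8 (24.3%). KO 3 was the lowest KO sample for 9 of 9 members and WT 8 the lowest WT sample for 6 of 9. Kansl1 itself was at 28.5, 26.7 and 24.4 TPM in WT 4, WT 5 and WT 8 and at 13.7, 15.8 and 14.4 TPM in KO 3, KO 7 and KO 10, in the direction of the labels.

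Among the 9 acetyltransferases, Kat2b fell to 39.6% of its WT level in KO MEFs, and no other member passed the thresholds of the study (adjusted p, here from limma, under 0.005 with an absolute log2 fold change over 0.5). At these thresholds 1 of 9 members was lower and 0 were higher, against 9.03% and 1.64% of the 14799 tested genes. At an adjusted p-value under 0.05 without a limit on the fold change, Kat2b and Kat8 were lower and Crebbp was higher, that is 2 and 1 of 9 members against 20.7% and 7.14% of tested genes. With median-of-ratios scaling, 2 members were lower and 3 higher at 0.05, against 23.1% and 20.3% of all genes tested in that fit, so the balance of directions at this threshold depends on scaling. The KO samples lay wholly above the WT samples for Crebbp, Ep300 and Kat5 and wholly below them for Kat2b and Kat8, or 3 and 2 of 9 members, against 13.3% and 29.9% of tested genes. The median log2 fold change was -0.02 over the members and -0.07 over all tested genes. These levels come from whole cultures, in which fewer cells of a type and less RNA per cell cannot be told apart.

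**Figure D1:**
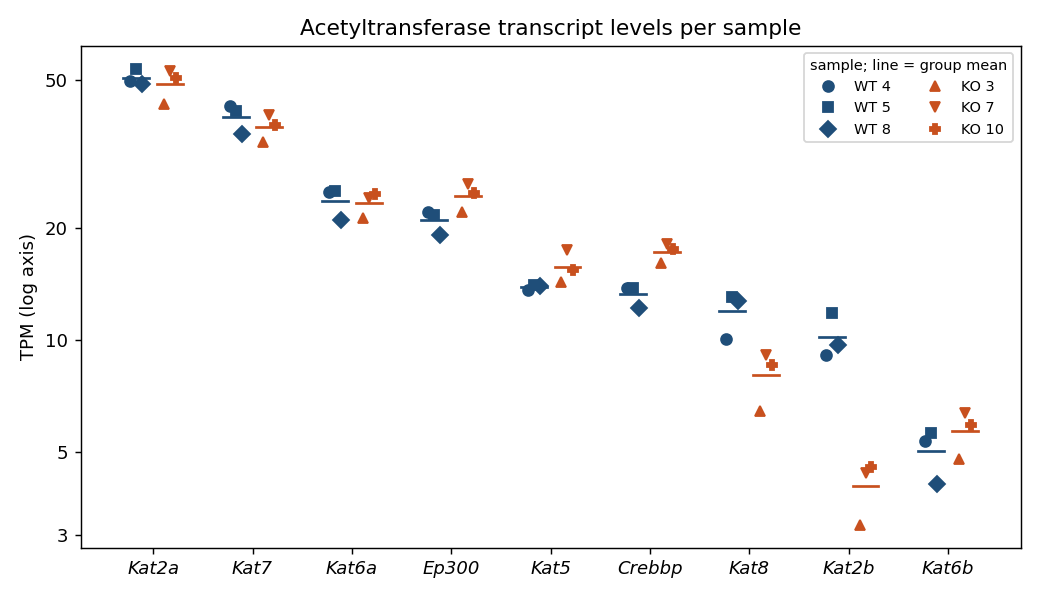
TPM of each acetyltransferase (log axis), ordered by WT mean, with 1 symbol per sample, WT in blue and KO in orange, and a line at the group mean. Kat2b lies between 9.15 and 11.8 TPM in WT and between 3.19 and 4.56 TPM in KO samples, while the Kat2a samples of both groups overlap.

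Kat2b, whose product PCAF acetylates histone H3 and other nuclear proteins, lies on chromosome 17 from 53566861 to 53672720 on the plus strand (mm10). Its level was 9.15, 11.8 and 9.73 TPM in WT 4, WT 5 and WT 8 and 3.19, 4.41 and 4.56 TPM in KO 3, KO 7 and KO 10. Every KO sample was under every WT sample. The WT mean was 10.2 ± 1.40 TPM and the KO mean 4.05 ± 0.749 TPM (SD, n = 3 each). On the log2(TPM + 1) scale, used for all fold changes but those of voom, Kat2b fell by 1.16 (SE 0.16, limma adjusted p = 0.000868). This rested on 361 to 504 reads in the WT and 113 to 208 reads in the KO samples. Kat2b passed both thresholds in each of the 6 fits that left out 1 sample, with log2 fold changes of -1.23 to -1.03. With all genes of the table tested, its limma adjusted p-value was 0.00804, which missed the threshold. Of the 50-base words in its transcripts, 7.28% also occur in the pseudogene Kat2b-ps, and reads from these stretches cannot be assigned with certainty.

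Kat2a (chromosome 11 from 100704746 to 100712465, minus strand), the paralogue whose product GCN5 takes the same place in SAGA and ATAC, was the member with the highest level. It was at 49.8, 53.6 and 48.8 TPM in WT 4, WT 5 and WT 8 and at 43.1, 53.1 and 50.6 TPM in KO 3, KO 7 and KO 10. The groups overlapped, and the log2 fold change of -0.06 (95% confidence interval -0.30 to 0.19) did not pass (limma adjusted p = 0.736). Its sign turned positive with median-of-ratios scaling (0.05) and without KO 3 (0.03). The Kat2a to Kat2b ratio, which is little affected by scaling, was 5.44, 4.54 and 5.01 in the WT samples and 13.5, 12.0 and 11.1 in KO 3, KO 7 and KO 10. The test used the log2 ratio of TPM + 1, which differs from the log2 of these ratios and was higher by 1.10 in KO samples (exact permutation test, two-sided, p = 0.1, the smallest p that 3 against 3 samples allow; 0.1 after adjustment over 3 paralogue pairs).

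Since Kat2b and Kat8 were the members lower in KO MEFs, the sequence before the annotated start of both genes is shown, read from RefSeq promoter windows on build GRCm38.p6, the same assembly as mm10. Capitals mark matches, on either strand, to the GC box GGGCGG, the CCAAT box, the TATA box TATAAA and the ETS core CCGGAA, which were chosen as common promoter elements. The Kat2b stretch is chr17:53566721-53566860 (140 bases, plus strand), and the Kat8 stretch is chr7:127912267-127912515 (249 bases, plus strand).
Kat2b: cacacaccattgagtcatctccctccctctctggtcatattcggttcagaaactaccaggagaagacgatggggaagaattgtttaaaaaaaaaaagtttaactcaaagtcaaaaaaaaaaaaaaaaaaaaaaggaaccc
Kat8: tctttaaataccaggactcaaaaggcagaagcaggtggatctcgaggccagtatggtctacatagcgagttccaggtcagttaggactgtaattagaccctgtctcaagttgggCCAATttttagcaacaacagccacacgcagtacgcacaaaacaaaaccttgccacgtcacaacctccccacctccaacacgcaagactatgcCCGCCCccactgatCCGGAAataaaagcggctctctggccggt
The Kat2b stretch held no match to the 4 motifs, and the Kat8 stretch held 1 GC box, 1 CCAAT box and 1 ETS core that did not overlap. Over whole windows of 300 bases (250 before and 50 after the RefSeq start), the Kat2b window had 47.0% G + C and 11 CpG, and the Kat8 window had 53.0% and 12. The other 6 members with a window had 53.0% to 82.0% G + C and 14 to 49 CpG. Over these windows Kat2b had 1 CCAAT box and none of the other motifs. The Kat8 window had 1 GC box, 1 CCAAT box and 2 ETS cores. Kat5 had 1 CCAAT box and 2 ETS cores, and Kat7 had 2 CCAAT boxes and 1 ETS core. Kat6b, Ep300 and Crebbp had GC boxes only (8, 1 and 2), and Kat2a had no match. A RefSeq start can lie inside the annotated gene. That of Kat6b was at 21499770, against an annotated start of 21481434, and that of Ep300 at 81586214, against 81585351. For Crebbp, on the minus strand, it was at 4213404, against 4213997. Of all 32851 windows of this length, 35.7% held a GC box, 37.4% a CCAAT box, 13.6% a TATAAA and 14.9% a CCGGAA. A match describes the letters of a window and not a bound site.

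Kat8, the MYST acetyltransferase of the NSL complex, lies on chromosome 7 from 127912516 to 127925837 on the plus strand. Its samples were at 10.1, 13.1 and 12.7 TPM in WT 4, WT 5 and WT 8 and at 6.47, 9.10 and 8.56 TPM in KO 3, KO 7 and KO 10, with no overlap and KO 3 the lowest. The KO mean was 67.3% of WT. On the log2 scale the difference was -0.52 (95% confidence interval -0.87 to -0.18), and its limma adjusted p of 0.0312 passed 0.05 but not the threshold of the study. The adjusted p-value was above 0.05 without WT 5 (0.103), WT 8 (0.0902), KO 3 (0.0774) or KO 10 (0.0553), and with all genes tested (0.0856). The log2 fold change was negative in each of these fits, and it was -0.43 with median-of-ratios scaling (limma adjusted p = 0.0419). Its coverage was 236 to 349 reads in the WT and 136 to 255 reads in the KO samples. Prss8 on the opposite strand shares 122 bp of exon with Kat8 and was at 0 to 0.185 TPM. Over the 6 samples, the tested genes whose log2 levels followed Kat8 most closely were Hapln4 (Pearson r = 0.998), Fgd1 (r = 0.995) and Ccdc107 (r = 0.994), given as a description, since all genes share these libraries and groups.

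On TPM as deposited, none of the other 4 MYST genes passed a threshold. Kat7 (chromosome 11 from 95274259 to 95310246, minus strand), which encodes the catalytic subunit HBO1 linked to replication origins, was at 42.5, 41.2 and 35.8 TPM in WT 4, WT 5 and WT 8 and at 34.0, 40.2 and 37.9 TPM in KO 3, KO 7 and KO 10. The groups overlapped, with a log2 fold change of -0.09 (95% confidence interval -0.34 to 0.16). Its sign turned with median-of-ratios scaling (0.01). Kat6a (chromosome 8 from 22859535 to 22943259, plus strand), known for its role in blood stem cells, was at 25.0, 25.2 and 21.0 TPM in WT and 21.3, 24.1 and 24.7 TPM in KO samples, in the same sample order. These ranges overlapped as well, and the log2 fold change was -0.02 (95% confidence interval -0.28 to 0.24), positive with median-of-ratios scaling (0.08), with voom (0.00095) and without WT 4, WT 5 or KO 3. Kat6b (chromosome 14 from 21481434 to 21672478, plus strand), its paralogue, was lower in level, at 5.35, 5.64 and 4.11 TPM in WT and 4.80, 6.39 and 5.90 TPM in KO samples. Its groups overlapped, and its log2 fold change was 0.15 (95% confidence interval -0.20 to 0.50). The Kat6a to Kat6b log2 ratio, also of TPM + 1, was 2.04 ± 0.0635 (SD, n = 3) in WT and 1.87 ± 0.0930 (SD, n = 3) in KO samples, a difference of -0.17 (exact permutation test, two-sided, p = 0.1, the smallest possible).

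Kat5 (chromosome 19 from 5603014 to 5610237, minus strand) encodes TIP60, which acetylates histone H4 and acts in the DNA damage response. It was at 13.6, 14.1 and 14.0 TPM in WT 4, WT 5 and WT 8 and at 14.3, 17.4 and 15.4 TPM in KO 3, KO 7 and KO 10. The KO samples were all higher, KO 3 by the smallest margin, and the difference of 0.16 on the log2 scale did not pass (limma adjusted p = 0.308). With median-of-ratios scaling it was 0.26 (limma adjusted p = 0.0234). Rnaseh2c exons overlap those of Kat5 on the opposite strand over 426 bp, or 12.1% of the Kat5 exon length. Rnaseh2c was at 30.8 to 36.5 TPM in WT and 22.6 to 29.2 TPM in KO samples, and without strand its reads cannot be separated from those of Kat5 in the overlap.

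Crebbp and Ep300, the coactivator pair, were both higher in every KO sample than in any WT sample. Crebbp (chromosome 16 from 4081328 to 4213997, minus strand) was at 13.9, 13.8 and 12.2 TPM in WT 4, WT 5 and WT 8 and at 16.1, 18.1 and 17.6 TPM in KO 3, KO 7 and KO 10. Its means were 13.3 ± 0.966 TPM in WT and 17.3 ± 1.04 TPM in KO samples (SD, n = 3 each), the latter 130.2% of the former. The log2 fold change was 0.36 (SE 0.11), which passed 0.05 but not the threshold of the study (limma adjusted p = 0.0363). The adjusted p-value was above 0.05 without WT 5 (0.0872), WT 8 (0.113), KO 7 (0.0969) or KO 10 (0.145), and with all genes tested (0.0572). It was 0.00110 with median-of-ratios scaling and 0.000301 with voom on recovered reads, where the log2 fold changes were 0.46 and 0.40 and so stayed under 0.5. Ep300 (chromosome 15 from 81585351 to 81652077, plus strand) was at 22.1, 21.8 and 19.1 TPM in the WT samples and at 22.2, 26.3 and 24.9 TPM in KO 3, KO 7 and KO 10. KO 3 exceeded WT 4 by little. The log2 fold change of 0.21 (95% confidence interval -0.04 to 0.46) did not pass (limma adjusted p = 0.198). Ep300 passed 0.05 with median-of-ratios scaling (log2 fold change 0.31, limma adjusted p = 0.00235), with voom (0.24, 0.00303) and without Gm23935 (0.23, 0.0149). The Ep300 to Crebbp log2 ratio of TPM + 1 was 0.62 ± 0.0139 (SD, n = 3) in WT and 0.47 ± 0.0387 (SD, n = 3) in KO samples, a difference of -0.15 (exact permutation test, two-sided, p = 0.1, the smallest possible).

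**Figure D2:**
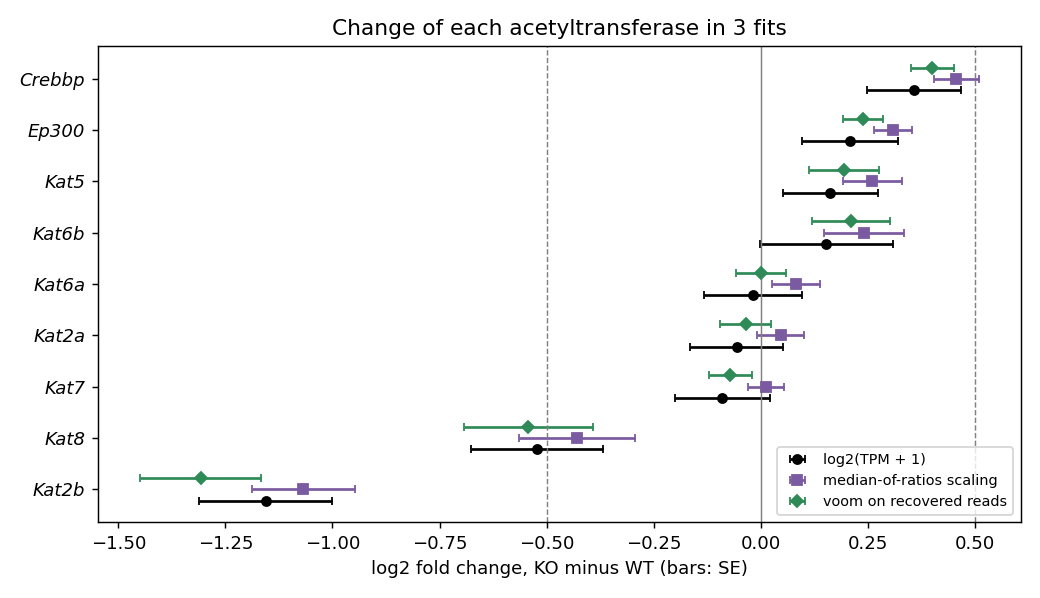
Log2 fold change (KO minus WT) of each acetyltransferase with its SE in 3 fits: log2(TPM + 1), the same after median-of-ratios scaling, and voom on recovered reads; dashed lines mark -0.5 and 0.5. Kat2b lies beyond -1 and Crebbp between 0.36 and 0.46 in the 3 fits, whereas Kat2a, Kat6a and Kat7 lie near 0 and change sign.

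To describe the mix of acetyltransferase transcripts free of sample scaling, each member was expressed as a share of the summed TPM of all 9, which was 189.7 ± 11.5 TPM (SD, n = 3) in WT and 185 ± 17.4 TPM (SD, n = 3) in KO samples. The share of Kat2b was 5.39% ± 0.564 in WT and 2.18% ± 0.236 in KO samples (SD, n = 3 each). The share of Kat8 was 6.32% ± 0.971 and 4.33% ± 0.365. The share of Crebbp was 7.00% ± 0.205 in WT and 9.38% ± 0.331 in KO samples, and that of Ep300 was 11.1% ± 0.425 and 13.2% ± 0.152. The groups did not overlap for these 4 genes, nor for Kat5 (7.35% ± 0.458 and 8.51% ± 0.350) or Kat6b (2.64% ± 0.282 and 3.07% ± 0.158). On TPM the Kat6b groups overlapped, and shares of this sum have no value over all genes to be read against. Together, Ep300 and Crebbp made up 18.8%, 17.8% and 17.7% of the sum in WT 4, WT 5 and WT 8 and 23.1%, 22.3% and 22.4% in KO 3, KO 7 and KO 10. Kat2a and Kat2b together took 32.1% ± 1.19 in WT and 28.6% ± 0.568 in KO samples, and the 5 MYST genes 49.8% ± 0.562 and 48.8% ± 0.136 (SD, n = 3 each). Shares of a fixed total depend on each other, so they were not tested.

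The order of mean levels in WT was Kat2a, Kat7, Kat6a, Ep300, Kat5, Crebbp, Kat8, Kat2b and Kat6b, from 50.7 to 5.03 TPM. Neighbours from Kat5 to Kat2b in this order had overlapping ranges, as did Kat6a and Ep300, while Kat2a, Kat7 and Kat6b stood apart from theirs. In KO samples, Ep300 came before Kat6a and Crebbp before Kat5, each with overlapping ranges, and Kat2b was last at 4.05 TPM, below Kat6b at 5.70 TPM in 3 of 3 samples. In WT, Kat2b had been above Kat6b in 3 of 3 samples. These orders depend on the merged exon lengths, which were 4867 bp for Kat2b and 16826 bp for Kat6b.

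Partner subunits of these enzymes, further acetyltransferases and genes of acetyl-CoA supply were compared as 7 lists written from gene names. Of 81 tested genes, 6 were called lower (Supt7l, Mbip, Dmap1, Kansl1, Hat1 and Dlat) and 0 higher at the thresholds of the study. At a limma adjusted p-value under 0.05, 14 were lower and 3 higher (Taf10, Usp22 and Kansl2). Both counts of lower genes include Kansl1, the gene targeted in KO MEFs. The 81 genes as a whole were thus called at shares near or below those of all tested genes, which were 9.03% lower and 1.64% higher at the thresholds of the study and 20.7% and 7.14% at 0.05, and each list is to be read against the same shares. The balance at 0.05 turned with median-of-ratios scaling, where 24 listed genes were higher and 16 lower (20.3% and 23.1% of all genes). It was more even, with lower genes still in the majority, at 16 higher and 22 lower with voom (15.2% and 29.1%) and 16 and 20 without Gm23935 (12.5% and 26.1%). Their median log2 fold change was -0.05, against -0.07 for all tested genes. The number of listed genes called was 3 of 87 with all genes tested, 10 of 81 without Gm23935 and 11 of 81 with voom. Over all genes, 341 of 26898, 2044 of 15490 and 2582 of 14790 were called in these fits. The 10 TPM filter gave 8 lower and 1 higher (Taf10) of 66 listed genes, against 1160 lower and 343 higher of 8230 genes. With median-of-ratios scaling 8 of 81 were lower and 1 was higher, against 1441 lower and 473 higher of 14802 genes. The higher one was the NSL subunit gene Kansl2 (log2 fold change 0.55, against 0.45 as deposited).

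SAGA and ATAC, the complexes that hold KAT2A or KAT2B, had 2 of 24 tested subunits lower, near the 9.03% of all tested genes. A listed gene that was not tested, Taf9, has its symbol on 2 rows of the table, of which the row with its gene ID was used, at 0.0487 to 0.349 TPM. Supt7l, a core SAGA subunit, was at 6.93, 7.50 and 7.10 TPM in WT 4, WT 5 and WT 8 and at 1.75, 2.89 and 2.56 TPM in KO 3, KO 7 and KO 10, with a log2 fold change of -1.28 (limma adjusted p = 0.000640). Its exons overlap Slc4a1ap on the opposite strand over 63 bp. Mbip, a subunit of ATAC, was at 16.4, 16.7 and 13.4 TPM in WT and 5.13, 5.74 and 5.83 TPM in KO samples, with a log2 fold change of -1.32 (limma adjusted p = 0.000248). At an adjusted p-value under 0.05, 4 of the 24 were lower and 2 higher, against 20.7% and 7.14% of all tested genes. With median-of-ratios scaling 4 were lower and 9 higher, against 23.1% and 20.3% of all genes in that fit. With voom 4 were lower and 5 higher, against 29.1% and 15.2%. The lower ones were Supt7l, Mbip, the TAF9 paralogue gene Taf9b (log2 fold change -0.63, limma adjusted p = 0.0125) and the histone reader gene Sgf29 (-0.59, 0.0183). Of the higher ones, the shared TFIID and SAGA subunit gene Taf10 was at 154% of WT (log2 fold change 0.59, limma adjusted p = 0.0140) and the deubiquitinase gene Usp22 at 127% (0.34, limma adjusted p = 0.0396). Trrap, the scaffold subunit that SAGA shares with NuA4/TIP60, had a log2 fold change of 0.05. The median over the SAGA and ATAC list was -0.05.

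NuA4/TIP60, the complex of KAT5, had 1 of 17 subunits lower. Dmap1 was at 18.1, 18.0 and 17.2 TPM in WT 4, WT 5 and WT 8 and at 4.90, 6.46 and 5.69 TPM in KO 3, KO 7 and KO 10. Of the tested listed genes it had the largest change on the log2(TPM + 1) scale, with a log2 fold change of -1.49 (SE 0.12, limma adjusted p = 0.000163). At an adjusted p-value under 0.05, 3 of 17 were lower and 0 higher on TPM as deposited, with Actl6a at -0.52 (limma adjusted p = 0.00760) and Ruvbl1 at -0.44 (0.0132) beside Dmap1. With median-of-ratios scaling 4 were lower and 5 higher, against 23.1% and 20.3% of all genes in that fit. With voom 4 were lower and 3 higher, against 29.1% and 15.2%. Epc1, Epc2 and Mbtd1 were higher in both. The median of this list was 0.01. In MOZ/MORF and HBO1, the complexes of KAT6A, KAT6B and KAT7, 0 of 8 tested subunits passed, and 1 passed an adjusted p-value of 0.05, the scaffold gene Jade2, at 2.38 to 2.96 TPM in WT and 1.10 to 1.25 TPM in KO samples (log2 fold change -0.74, limma adjusted p = 0.00932). Jade2 passed the thresholds of the study with median-of-ratios scaling (-0.67, limma adjusted p = 0.00395), with voom (-1.14, 0.000115) and without Gm23935 (-0.78, 0.00296). The next by p-value was Ing5, a chromatin reader subunit, at -0.29 (limma adjusted p = 0.104), with adjusted p-values of 0.0334, 0.00857 and 0.0188 in the same 3 fits. Brd1 and Jade3 passed 0.05 in these fits in the opposite direction, with limma adjusted p-values of 0.00634 to 0.0300 and of 0.0180 to 0.0440. In MSL and NSL, the complexes of KAT8, 1 of 12 genes was lower, which was Kansl1 itself, and at 0.05 Kansl2 was higher (limma adjusted p = 0.0117). With median-of-ratios scaling 1 was lower and 4 higher at 0.05, adding Kansl3, Ogt and Msl1, against 23.1% and 20.3% of all genes. With voom 3 were lower and 3 higher, against 29.1% and 15.2%. Of the 8 tested p300/CBP partners none passed either threshold on TPM as deposited. The smallest adjusted p-values there were those of the coactivators Ncoa3 and Crtc3, at 0.27 (limma adjusted p = 0.110) and 0.26 (0.117), and exons of Ncoa3 overlap Sulf2 on the opposite strand over 154 bp. Both passed 0.05 with median-of-ratios scaling (limma adjusted p = 0.00461 and 0.00566), with voom (0.00446 and 0.00451) and without Gm23935 (0.0173 and 0.0172). Ncoa1 and Ncoa2, of the same coactivator family as Ncoa3, were lower in KO samples, opposite to Ncoa3 in sign, and passed 0.05 with voom (log2 fold changes -0.37 and -0.26, limma adjusted p = 0.0221 and 0.00633), Ncoa2 also without Gm23935 (-0.23, 0.0423). On TPM as deposited they were at -0.32 and -0.24 and did not pass.

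Among 9 further acetyltransferase genes, 1 was lower. Hat1, which encodes the enzyme that acetylates newly made histone H4, was at 50.3, 41.8 and 38.2 TPM in WT 4, WT 5 and WT 8 and at 20.7, 27.4 and 26.0 TPM in KO 3, KO 7 and KO 10. All KO samples were below all WT samples, with a log2 fold change of -0.79 (limma adjusted p = 0.00309). Of 9 tested genes of acetyl-CoA supply, 1 was lower at the thresholds of the study and 4 at an adjusted p-value under 0.05, against 20.7% of all tested genes. These were Dlat, Pdhx (log2 fold change -0.57, limma adjusted p = 0.00678), the citrate carrier gene Slc25a1 (-0.48, 0.00502) and the acetyl-CoA transporter gene Slc33a1 (-0.59, 0.0115). Acly, which encodes the enzyme that makes acetyl-CoA from citrate, was at 0.26 (limma adjusted p = 0.0763) and passed 0.05 as higher with median-of-ratios scaling (0.36, 0.00256), voom (0.28, 0.00242) and without Gm23935 (0.27, 0.00467). In this list, 4 genes were lower and 2 higher at 0.05 with median-of-ratios scaling, against 23.1% and 20.3% of all genes. With voom 4 were lower and 1 higher, against 29.1% and 15.2%. Dlat, which encodes a subunit of the pyruvate dehydrogenase complex, was at 68.8, 58.1 and 54.5 TPM in WT and 37.0, 40.7 and 37.5 TPM in KO samples, with a log2 fold change of -0.64 (limma adjusted p = 0.00306). The calls of Hat1 and Dlat held in 1 of 6 fits that left out a sample, the fit without WT 8, with adjusted p-values of up to 0.0113 and 0.0149 in the others. Those of Supt7l, Mbip, Dmap1 and Kansl1 held in all 6. With all genes tested, those of Mbip, Dmap1 and Kansl1 held, and those of Supt7l (limma adjusted p = 0.00685), Hat1 (0.0156) and Dlat (0.0112) did not.

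**Figure D3:**
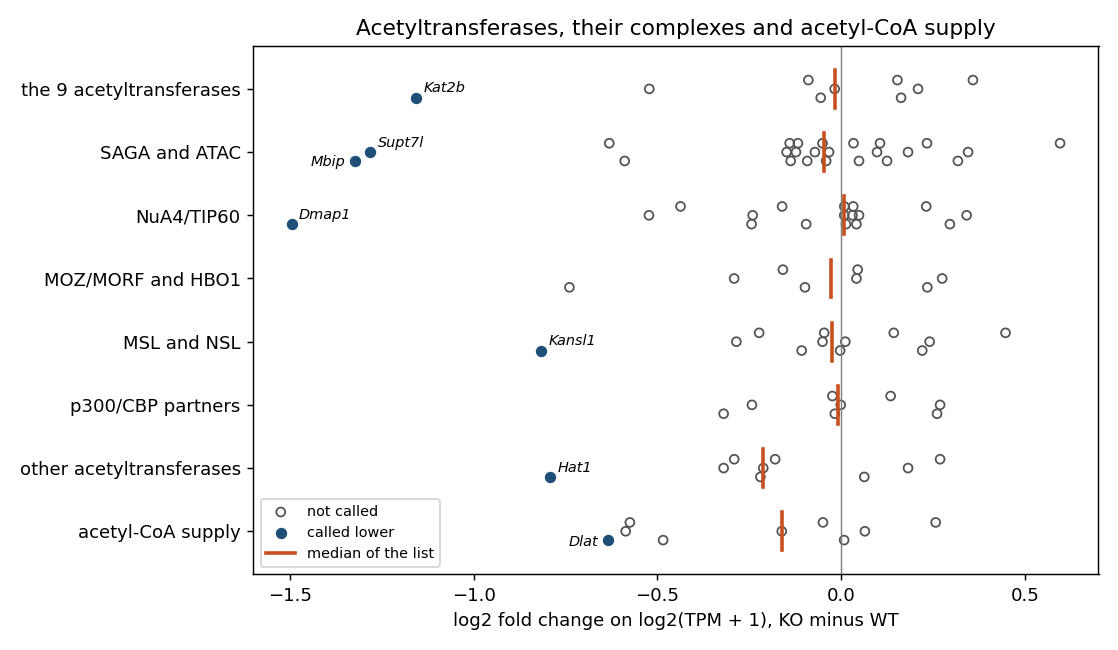
Log2 fold change on the log2(TPM + 1) scale (KO minus WT) of the 9 acetyltransferases and of each tested gene in the 7 lists, with filled points for genes called lower at the thresholds of the study and a line at the median of each list. Kat2b, Supt7l, Mbip and Dmap1 lie beyond -1, and the list medians lie between -0.21 and 0.01.

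The labelled cell type was compared with marker lists. Of 10 fibroblast markers, 9 were tested and 0 called. Their summed level was 10276.5 to 14852 TPM in WT and 11003 to 14436 TPM in KO samples. Over all samples Col1a1 was at 3080 to 5809 TPM, Dcn at 2.26 to 7.92 TPM and the untested S100a4 at 0 to 1.48 TPM. WT 4 was the lowest WT sample for Col1a1 (3080 against 5805 and 4958 TPM) and Dcn (2.26 against 5.68 and 5.65 TPM). For Vim, WT 4 was the highest WT sample (2522 TPM). Of 8 proliferation genes, 3 were lower at the thresholds of the study, against 9.03% of tested genes. At an adjusted p-value under 0.05, 7 were lower, against 20.7%. The sum of the 8 proliferation genes was 432 to 527 TPM in WT and 270.3 to 367 TPM in KO samples. Of 8 macrophage genes, 5 were tested, of which 1 (Lyz2) was higher at the thresholds of the study, against 1.64% of tested genes. At an adjusted p-value under 0.05, 4 were higher, against 7.14%. The sum of the 8 macrophage genes was 33.6 to 37.9 TPM in WT and 69.7 to 140.5 TPM in KO samples. Ptprc, one of those not tested, was at 0.0872 to 0.257 TPM over all samples and highest in KO 10. Endothelial, neural and muscle genes had 0 called at either threshold. Of 3 tested epithelial genes, 1 (Krt8) was higher at 0.05, against the same 7.14%. The part of proliferation or of macrophage transcripts in the changes of Kat2b, Kat8, Crebbp and the complex subunits was not tested.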

How the data were processed

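RNA-seq of 6 primary MEF samples was analysed, with 2 μg RNA per library. Per the labels the medium held 10% serum. The authors aligned the reads to mm10 with STAR (the submitters' processing notes list Bowtie 0.12.2) and deposited expression as TPM. The counting program was not given in the sources used here, and the library kit does not mark strand. The deposited table also holds the authors' log2 fold changes and adjusted p-values, which were not used.

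The 14799 genes whose mean reached 1 TPM in WT or KO entered a limma fit (version 3.58.1, R 4.3.3) of log2(TPM + 1), with its variance trend and without covariates, and p-values were adjusted over all of them by the Benjamini-Hochberg method. Fold changes on this scale understate changes of genes with low expression. The fit was tested on simulated data, and no result of that test is used here. Groups came from sample titles. Whole reads were recovered from TPM and merged exon length (GENCODE M21) for 100% of the values checked at a tolerance of 0.05, and served for depth and for voom. Intervals are 95% confidence intervals of limma.

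Members and lists were chosen with earlier results of these data known. Named genes were the members, Kansl1, listed genes past the thresholds (otherwise the 2 with the smallest p-values of a list) and the 3 genes most correlated with Kat8. Alternatives were another pseudocount (0.1), filters (none, 10 TPM), scalings, no trend, voom, an adjusted p-value of 0.05 and leaving out each sample. Genes named outside this rule (Taf10, Usp22, Kansl2, Trrap, Ncoa1, Ncoa2, Taf9b, Sgf29, Actl6a, Ruvbl1, Pdhx, Slc25a1, Slc33a1, Taf9, Epc1, Epc2, Mbtd1, Brd1, Jade3, Kansl3, Ogt, Msl1, Acly and the markers) were chosen after their values were seen.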

Additional observations from a re-analysis of the deposited data

How the results depend on the processing

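No paired analysis was run, because the labels give neither litter nor pairing, and no replicate number occurs in both groups. The fit without Gm23935 was chosen after seeing the data. Against 1 member, 6 listed genes and 1579 genes called (242 higher, 1337 lower), testing all genes gave 0, 3 and 341, whereas calls at adjusted p under 0.05 numbered 3, 17 and 4114. Voom gave 11 listed genes and 2582 genes, and the fit without Gm23935 gave 10 listed genes and 2044 genes. In the fit of all genes, where 0 members passed, Kat2b alone was under an adjusted p-value of 0.05. Fits without 1 sample gave 1 member, 4 to 6 listed genes and 758 to 1081 genes, the latter 48.0% to 68.5% of the main number (68.5% without WT 4 and 48.0% without WT 5). Lower calls made up 84.7% of the main calls and 75.3% with median-of-ratios scaling, where 473 were higher and 1441 lower. Higher calls numbered 84 without KO 7, 112 without WT 8 and 123 without KO 3. They numbered 124 without KO 10, 141 without WT 5 and 252 without WT 4. Lower calls in these fits ranged from 617 without WT 5 to 938 without KO 7, against 1337 in the main fit. The shares of higher and of lower genes among all genes thus move with single samples.

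Members that passed no threshold changed sign as follows. With median-of-ratios scaling, Kat2a was at 0.047, Kat6a at 0.083 and Kat7 at 0.013, and with voom Kat6a was at 0.00095. In fits without 1 sample, Kat2a ranged from -0.116 to 0.031 and Kat6a from -0.099 to 0.044. The cause was not tested. Kat2b, Kat8, Kat5, Kat6b, Ep300 and Crebbp kept their direction in all fits that gave a value. Differences of the paralogue log2 ratios ranged from 1.04 to 1.27 for Kat2a/Kat2b, -0.21 to -0.12 for Kat6a/Kat6b and -0.17 to -0.13 for Ep300/Crebbp. Kat6b was not tested under the 10 TPM filter. Kat8 had the fewest reads of the members in each WT sample, and Kat2b in each KO sample, with 113 reads at the lowest.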
